A study of Mus musculus with 6 samples.

Results

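Heme, iron and antioxidant genes were followed in stimulated regulatory T cells (Tregs), a CD4 lineage that depends on Foxp3 and dampens immune responses. The 35 genes were given by name for their roles in heme synthesis and breakdown, iron handling, the thioredoxin and glutathione systems and NADPH supply, out of 49585 genes in the table. Of these, 33 were found by symbol, and Flvcr1 and Flvcr2, which the table lists as Mfsd7b and Mfsd7c, by gene identifier. Poly(A) RNA came from B220-negative, CD4- and YFP-positive spleen cells of C57BL/6 mice aged 7 weeks, with CD25 as a further sort marker in the design text, stimulated for 24 hours with anti-CD3 and anti-CD28 fixed to the plate. All groups shared this stimulation. Of the 6 libraries, 3 carry the label WT and 3 the label Bach2-cKO, short for conditional knockout, in which the transcriptional repressor gene Bach2 is the target. The sources used here do not give the driver of the deletion, the cells that carry it or whether the libraries of a group came from separate mice. The p-values therefore cover only the spread among these libraries, and that spread may be technical.

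Heme is built from glycine and succinyl-CoA by a chain of enzymes that begins and ends in the mitochondrion, and heme oxygenase opens its ring to biliverdin, carbon monoxide and iron. Ferritin stores the iron, and transferrin receptor brings it in. Thioredoxin and glutathione carry reducing power from NADPH to peroxides and oxidised proteins. Many of these genes carry antioxidant response or MAF recognition elements, which NRF2 can activate and BACH proteins can repress, and heme itself binds BACH proteins. The comparison asks how these genes stood in stimulated Tregs of the Bach2-cKO group against WT.

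To show the letters that such factors recognise, bases before the gene start are printed for some of the members that rose. They come from RefSeq (GRCm38.p6) and run 5′ to 3′. RefSeq promoter windows were found for 29 of the 35 members. RefSeq starts and those of the deposited table can differ: of 41 member windows, 22 reach past the table's gene start and 14 of these lie wholly past it, Osgin1's among them. The letters below stop at the earlier start, which leaves out 8 bases for Srxn1 and 55 for Prdx1. The letters TGAGTCA, common to AP-1 and MAF-type elements, and TGACNNNGC, the core of the antioxidant response element, were searched on both strands of the 250 bases before each RefSeq start, and the 2 can overlap. Capitals mark a match to either. Srxn1 and Prdx1 hold TGAGTCA, and Gclm and Txnrd1 hold TGACNNNGC (for Txnrd1 in the window shown, of 3). Cpox, which rose more than any of these on the log2 scale, holds neither. Txn1 and Tfrc, which also rose and are not printed, hold neither in their windows, and Gsr had no window. A longer MAF-type form, TGAGTCA with further letters before it, was also searched. This longer form stood in 0 of the 41 member windows and in 0.134% of all RefSeq windows.
Srxn1 (chr2:152105274-152105515, plus strand): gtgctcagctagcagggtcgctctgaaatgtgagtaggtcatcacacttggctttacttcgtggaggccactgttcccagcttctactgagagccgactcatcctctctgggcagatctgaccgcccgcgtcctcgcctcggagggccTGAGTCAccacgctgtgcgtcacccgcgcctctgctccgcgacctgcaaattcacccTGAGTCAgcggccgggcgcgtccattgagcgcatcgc
Prdx1 (chr4:116685349-116685543, plus strand): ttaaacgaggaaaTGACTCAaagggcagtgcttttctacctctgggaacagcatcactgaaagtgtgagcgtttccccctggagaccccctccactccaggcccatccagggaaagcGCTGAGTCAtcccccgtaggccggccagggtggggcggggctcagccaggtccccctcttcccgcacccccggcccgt
Gclm (chr3:122245307-122245556, plus strand): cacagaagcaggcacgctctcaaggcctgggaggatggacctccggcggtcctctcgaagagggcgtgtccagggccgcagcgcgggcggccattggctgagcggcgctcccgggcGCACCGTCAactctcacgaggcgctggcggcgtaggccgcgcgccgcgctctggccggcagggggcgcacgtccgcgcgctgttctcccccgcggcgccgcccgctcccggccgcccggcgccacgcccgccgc
Txnrd1 (chr10:82858956-82859205, plus strand): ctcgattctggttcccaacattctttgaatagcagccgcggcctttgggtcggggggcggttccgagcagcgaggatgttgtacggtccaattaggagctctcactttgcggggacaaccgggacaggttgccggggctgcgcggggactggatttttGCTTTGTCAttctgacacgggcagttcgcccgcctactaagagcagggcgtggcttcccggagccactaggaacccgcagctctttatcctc
Cpox (chr16:58669958-58670207, plus strand): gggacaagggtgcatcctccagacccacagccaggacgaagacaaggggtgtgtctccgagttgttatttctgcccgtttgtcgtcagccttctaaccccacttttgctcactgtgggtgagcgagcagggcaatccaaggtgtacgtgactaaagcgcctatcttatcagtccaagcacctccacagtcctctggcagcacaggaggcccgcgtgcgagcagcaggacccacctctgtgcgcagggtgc
TGAGTCA stood in 4.46% of all 32851 RefSeq windows and in 3 of the 41 member windows, those of Srxn1 (2 matches), Prdx1 (2 matches) and Osgin1. TGACNNNGC stood in 10.2% of all windows and in 6 of the 41 member windows, those of Blvra, Flvcr1, G6pdx, Gclm, Prdx1 and Txnrd1, and in Prdx1 a match of one kind overlaps a match of the other. A match describes letters in this window and says nothing of binding.

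Read totals recovered from the deposited FPKM (read fragments scaled by gene length and by library total) ran from 27697735 to 43884431 per library. Bach2 itself stood at 112.0, 111.4 and 99.4 FPKM in the WT libraries and at 88.9, 104.5 and 120.8 FPKM in the libraries labelled Bach2-cKO. These values do not separate the groups and, as the deleted part of the gene is not given, they do not check the labels. Foxp3 was at 104.2 to 153.5 FPKM and Cd4 at 265.2 to 373.5 FPKM over the 6 libraries, so these markers of the labelled cell type were present in each. The sum over 6 Treg markers was 1597, 1449 and 1791 FPKM in WT and 1843, 1799 and 2055 FPKM in Bach2-cKO. Of these, Il2ra, the gene of CD25, rose (limma adjusted p = 0.00186), and Ctla4 was higher in every Bach2-cKO library (adjusted p = 0.0814). Foxp3, Ikzf2, Tnfrsf18 and Tnfrsf4 overlapped between groups and did not pass. General T cell markers were lower in Bach2-cKO, with a sum over 5 markers of 1548, 1568 and 1699 FPKM in WT and 1286, 1229 and 1447 FPKM in Bach2-cKO. Cd3d and Cd3g fell (limma adjusted p = 0.0292 and 0.0346), and Cd4 (adjusted p = 0.0578) and Trac (0.0849) were lower in every Bach2-cKO library. Markers of B cells were abundant too, although B220-negative cells were sorted. Their sum over 10 markers was 1152, 1612 and 1154 FPKM in WT and 1659, 2117 and 1827 FPKM in Bach2-cKO, and Ms4a1, Pax5 and Cd22 were among those that rose (limma adjusted p = 0.0268, 0.00623 and 0.00681). Among 5 markers of CD8 T cells 3 rose (Cd8a, Cd8b1 and Klrd1), and among 6 tested markers of plasma cells 4 rose (Jchain, Mzb1, Prdm1 and Xbp1). The plasma cell markers Sdc1 and Irf4 did not pass (limma adjusted p = 0.863 and 0.12). Tnfrsf17, at 0.0397 to 0.336 FPKM, was too low to be tested. In bulk samples fewer cells of a type and less RNA per cell cannot be told apart.

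Of the 32 members tested, 8 were higher and 1 was lower in Bach2-cKO (limma on log2(FPKM + 1), p adjusted by Benjamini-Hochberg under 0.05). That is 28.1% of the members tested, against 15.3% of all 13766 genes tested. The members were chosen with earlier results of these data known. This share and those below therefore describe the members and do not test them as a set. By direction, 7.02% of all genes were called higher and 8.31% lower. The 8 that rose were Cpox, Srxn1, Txnrd1, Gclm, Txn1, Prdx1, Gsr and Tfrc, and the 1 that fell was Ppox. The median log2 fold change was 0.17 over the members tested and -0.017 over all genes tested. The 3 members not tested, Slc40a1, Flvcr2 and Me1, stayed under 1 FPKM in every library. Groups did not overlap for 17 of the 32 members tested (53.1%), with Bach2-cKO higher in 13 and lower in 4, where 35.6% of all genes tested did not overlap (15.5% with Bach2-cKO higher and 20.1% lower). Without Bach2-cKO replicate 2 the count of members called higher was 5 of 32, where 492 of all 13766 genes tested were called higher. Once each library's B cell marker score entered the fit, 0 of 32 members were called higher, where only 74 of all 13766 genes tested were. With that covariate 5 members (15.6%) had an unadjusted p under 0.05 in limma, Cpox and the 4 thioredoxin genes, a share no larger than the 17.6% of all genes tested. Without it, 13 members were higher and 1 lower at an unadjusted p under 0.05, or 40.6% and 3.12%, against 13.8% and 17.0% of all genes tested. Limma-voom called 10 members higher and 1 lower, or 31.2% and 3.12%, against 9.32% and 8.75% of all genes tested. These shares over all genes apply to the counts by group of genes that follow.

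**Figure D1:**
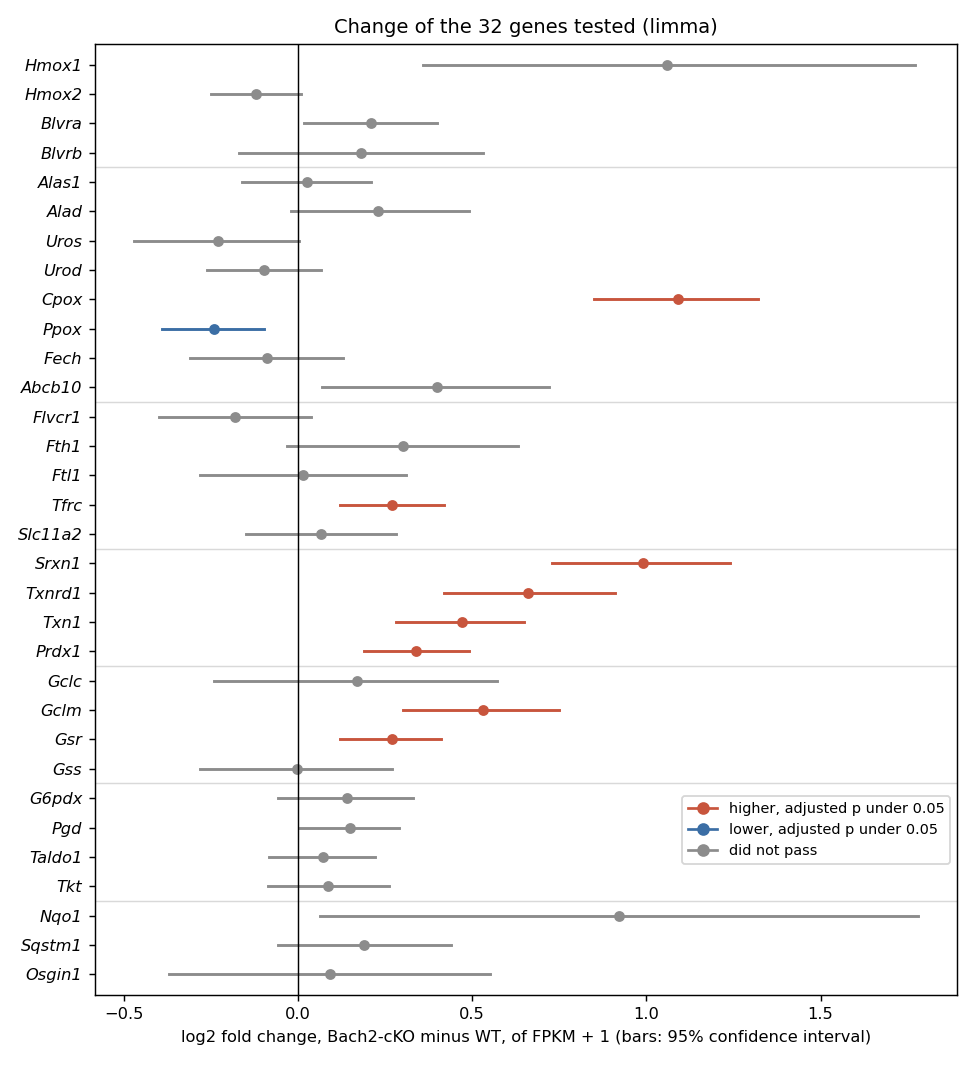
Log2 fold change of FPKM + 1 (Bach2-cKO minus WT) for the 32 members tested, with 95% confidence intervals from limma, in the order of their functions. The intervals of the 4 thioredoxin genes lie wholly above 0, as do those of Cpox, Gclm, Gsr, Tfrc, Hmox1, Blvra, Abcb10, Nqo1 and Pgd. The estimates for the tested members of NADPH supply lie between 0.071 and 0.15.

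The levels of the members spanned a wide range (FPKM, which is per length). The ferritin heavy chain gene Fth1 was highest, with a mean of 547.5 FPKM over the 6 libraries, above 99.0% of the genes tested. The autophagy receptor gene Sqstm1 followed at 327.9 FPKM and the ferritin light chain gene Ftl1 at 310.1 FPKM. Sqstm1 and Ftl1 overlapped in range, at 271.9 to 396.5 and 274.4 to 375.8 FPKM. Prdx1 and Txn1 came next with means of 219.2 and 201.2 FPKM, and the pentose phosphate genes Tkt and Taldo1 with 153.1 and 143.2 FPKM. At the lower end of the tested members, Osgin1, Nqo1 and Abcb10 had means of 4.10, 3.72 and 3.63 FPKM.

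**Figure D2:**
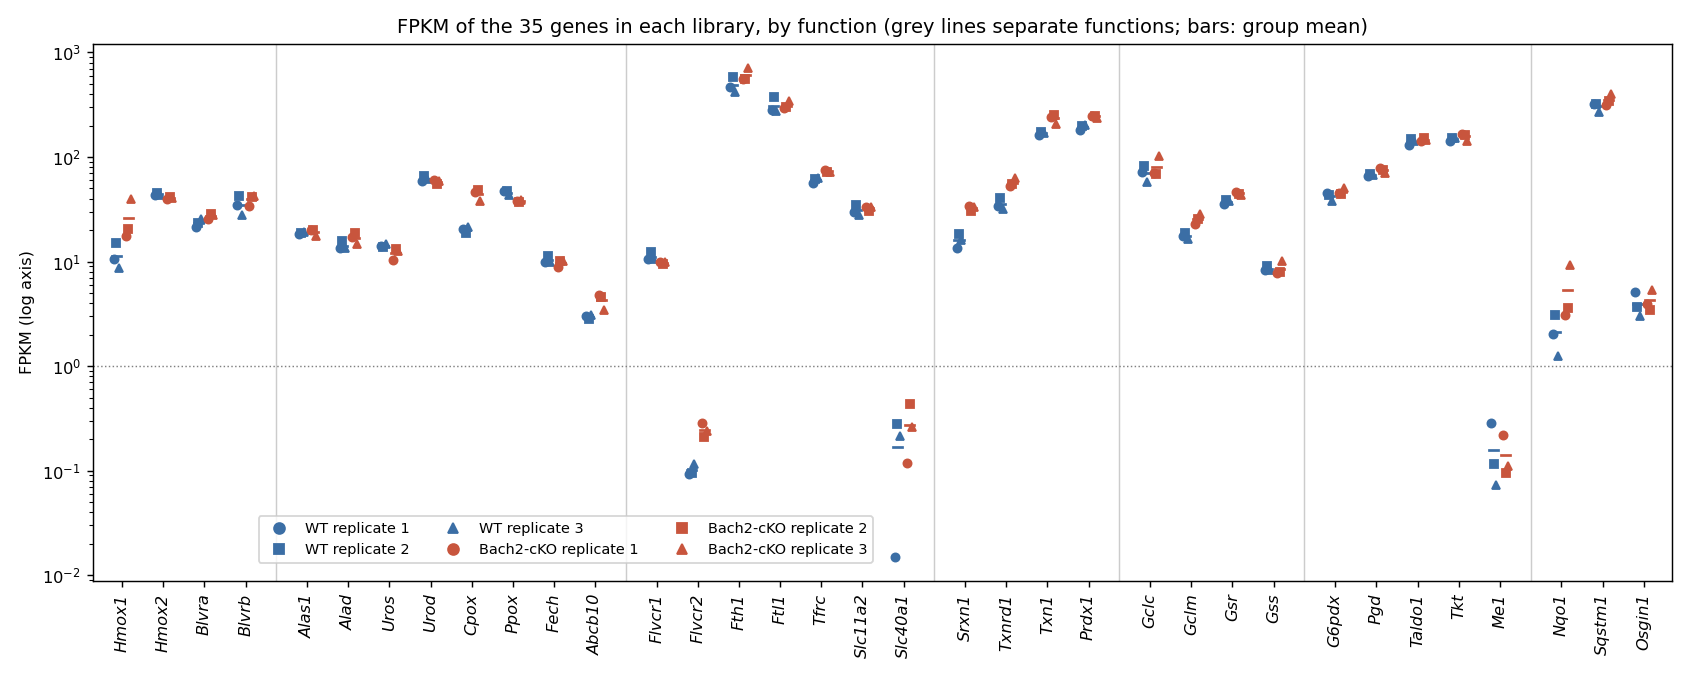
FPKM on a log axis for all 35 members in each of the 6 libraries, grouped by function, with bars at the group means and a dotted line at 1 FPKM. Slc40a1, Flvcr2 and Me1 lie under the dotted line in every library, and Cpox and Srxn1 show a gap between the groups.

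Heme synthesis changed at single steps and not along the whole chain. Cpox, which encodes coproporphyrinogen oxidase (chromosome 16, 58670208 to 58680391, GRCm38), was at 20.7, 18.9 and 21.2 FPKM in WT and at 45.9, 48.7 and 38.2 FPKM in Bach2-cKO. The lowest Bach2-cKO value was well above the highest WT value. The Cpox mean was 20.2 ± 1.17 FPKM in WT and 44.3 ± 5.41 FPKM in Bach2-cKO (SD, n = 3 each), and limma gave a log2 fold change of 1.09 (SE 0.099, adjusted p = 0.000803). Ppox, which encodes the enzyme of the next step (chromosome 1, 171275990 to 171281186), went the other way, at 46.8, 46.8 and 42.9 FPKM in WT and 38.3, 37.3 and 39.1 FPKM in Bach2-cKO. Its groups did not overlap either, but the change was small (log2 fold change -0.24, SE 0.062, limma adjusted p = 0.0388). The Ppox call was lost with median-ratio scaling (adjusted p = 0.0511) and without any 1 of WT replicates 1 and 2 and Bach2-cKO replicates 1 and 2 (adjusted p = 0.133, 0.108, 0.106 and 0.135). B4galt3, which overlaps Ppox on the opposite strand, was at 19.2 to 24.5 FPKM. The strand setting of the counting is not given, so reads in bases they share may not be told apart. The same holds for Bccip over Uros (81.3 to 90.3 FPKM) and Cdip1 over Hmox2 (26.2 to 39.1 FPKM). It also holds for Ikbkg over G6pdx (25.9 to 31.4 FPKM) and Acss2 over Gss (7.15 to 12.7 FPKM). On the same strand, Eid3 overlaps Txnrd1 (0.775 to 1.99 FPKM) and Gm24727 overlaps Gsr (0 to 1.95 FPKM). Gm24727 was itself called higher (limma adjusted p = 0.0124), but passed the filter on low values through Bach2-cKO alone. The part of either gene in these members' values was not tested.

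The other heme synthesis members did not pass. Alas1, which encodes the first and rate-limiting enzyme outside the red cell lineage, was at 18.4, 18.7 and 19.3 FPKM in WT and 19.9, 20.2 and 17.6 FPKM in Bach2-cKO. These values overlap, and the 95% confidence interval of the log2 fold change ran from -0.16 to 0.21. Alad (aminolevulinate dehydratase), Urod (uroporphyrinogen decarboxylase) and Fech (ferrochelatase, which inserts the iron) overlapped between groups as well, with log2 fold changes of 0.23, -0.097 and -0.088. Uros (uroporphyrinogen synthase) was lower in every Bach2-cKO library, at 10.3, 13.1 and 12.5 against 14.0, 13.9 and 14.6 FPKM, with a limma adjusted p = 0.168. Abcb10, a mitochondrial transporter that aids heme synthesis, was at 3.05, 2.82 and 3.07 FPKM in WT and 4.77, 4.63 and 3.41 FPKM in Bach2-cKO. Bach2-cKO replicate 3 lay nearest to WT. The Abcb10 log2 fold change was 0.40 (SE 0.14, limma adjusted p = 0.101), and 0.52 without Bach2-cKO replicate 3 (adjusted p = 0.0319) and 0.53 by limma-voom (adjusted p = 0.0360).

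**Figure D3:**
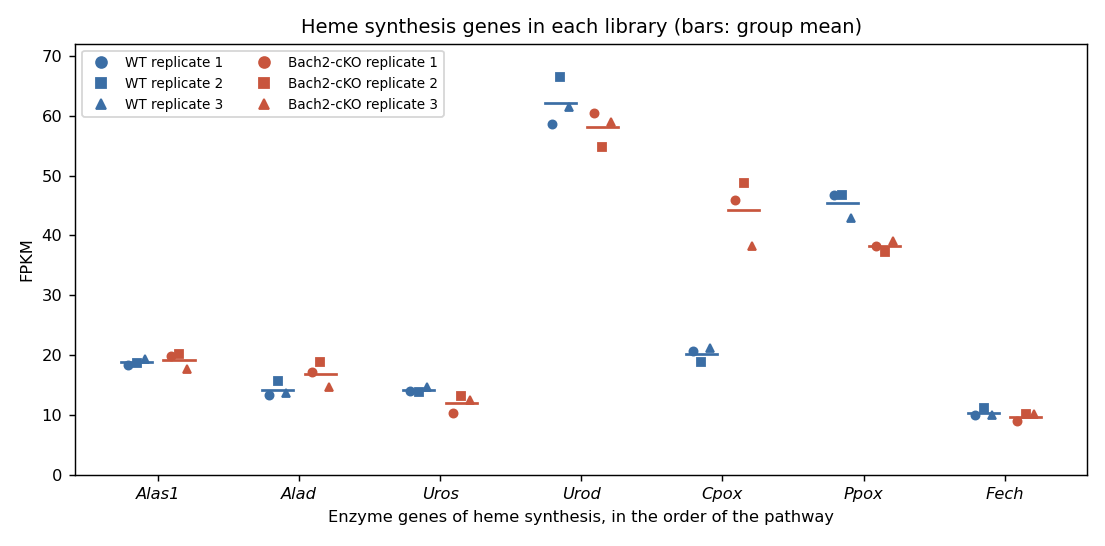
FPKM of the heme synthesis enzymes among the members, in pathway order, in each library, with bars at the group means. The gap between groups is widest at Cpox (20.2 and 44.3 FPKM on average), Ppox is lower in Bach2-cKO, and Alas1 and Fech overlap.

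Alas2, the form of the first enzyme that red cell precursors use, was at 6.09, 8.39 and 3.04 FPKM in WT and 4.06, 13.8 and 12.0 FPKM in Bach2-cKO. It went with the erythroid markers, whose sum was 383.4, 556.5 and 205.0 FPKM in WT and 215.5, 1059 and 808.4 FPKM in Bach2-cKO, mostly from the globin genes Hbb-bs and Hba-a1. The part of these markers in the heme synthesis values was not tested.

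Heme breakdown had 0 of 4 members past the threshold in limma. Limma-voom called 1 higher, and 2 were higher and 0 lower at an unadjusted p under 0.05. Hmox1, which encodes the inducible heme oxygenase (chromosome 8, 75093621 to 75100589), was at 10.5, 14.9 and 8.75 FPKM in WT and 17.4, 20.6 and 40.0 FPKM in Bach2-cKO. All Bach2-cKO values were above all WT values, and Bach2-cKO replicate 3 stood far above the other two. The Hmox1 mean was 11.4 ± 3.18 FPKM in WT and 26.0 ± 12.2 FPKM in Bach2-cKO (SD, n = 3 each), and limma gave a log2 fold change of 1.06 (SE 0.30, adjusted p = 0.0544). By limma-voom the log2 fold change was 1.14 (adjusted p = 0.0309), and without Bach2-cKO replicate 1 it was 1.30 (adjusted p = 0.0447), over a range of 0.72 to 1.30 and an adjusted p of 0.0447 to 0.152 with 1 library left out. Hmox2, the constitutive form, was at 43.2, 44.9 and 43.6 FPKM in WT and 39.6, 41.2 and 40.2 FPKM in Bach2-cKO, with no overlap, a log2 fold change of -0.12 and an adjusted p = 0.193. The biliverdin reductase genes Blvra and Blvrb had log2 fold changes of 0.21 and 0.18 (adjusted p = 0.132 and 0.474), and that of Blvrb ranged from 0.028 without WT replicate 3 to 0.32 without WT replicate 2. Of 14 macrophage and monocyte markers, the cells known for high Hmox1, 12 did not reach 1 FPKM in at least 3 libraries. The other two were Lyz2, at 1.03 to 5.63 FPKM, and Cd68, at 12.2 to 20.8 FPKM. The sum over the 14 was 15.6 to 21.9 FPKM in WT and 23.5 to 26.9 FPKM in Bach2-cKO. Adgre1 was higher in every Bach2-cKO library, at 0.963, 1.29 and 1.09 against 0.458, 0.589 and 0.351 FPKM in WT. Vcam1 and C1qb, under 1 FPKM throughout, were lower in every Bach2-cKO library. The rest overlapped between groups, and Cd163 was at 0 in 3 libraries of the 6. The part of these markers in the Hmox1 values was not tested.

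Among genes of heme export and iron handling, 1 of 5 tested members rose. Tfrc, the transferrin receptor gene (chromosome 16, 32608920 to 32632794), was at 56.3, 61.0 and 63.4 FPKM in WT and 75.2, 72.1 and 71.3 FPKM in Bach2-cKO. Each Bach2-cKO library was above each WT library, and limma gave a log2 fold change of 0.27 (SE 0.064, adjusted p = 0.0288). The call was lost without any 1 of WT replicates 1 and 2 and Bach2-cKO replicates 1 and 2 (adjusted p = 0.0970, 0.0662, 0.0988 and 0.0881). Fth1 was at 468.8, 584.3 and 422.4 FPKM in WT and 552.9, 552.6 and 703.9 FPKM in Bach2-cKO. The groups overlapped through WT replicate 2, and the log2 fold change of 0.30 (SE 0.14) had an adjusted p = 0.203. It was 0.18 without Bach2-cKO replicate 3 and 0.19 without WT replicate 3. Ftl1 was at 279.8, 375.8 and 274.4 FPKM in WT and 292.4, 298.0 and 340.0 FPKM in Bach2-cKO, a log2 fold change of 0.013 with a 95% confidence interval of -0.28 to 0.31. Ferritin genes have processed pseudogenes, of which Ftl1-ps1 was at 9.39 to 12.4 FPKM, so part of the Ftl1 reads could be split between copies.

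Flvcr1, described as a heme exporter, was lower in every Bach2-cKO library, at 9.90, 9.44 and 9.83 against 10.5, 12.4 and 10.6 FPKM (log2 fold change -0.18, limma adjusted p = 0.240). The iron importer gene Slc11a2 was at 28.0 to 34.8 FPKM over all libraries, with overlapping groups. The iron exporter gene Slc40a1 was hardly detected, with 1, 13 and 9 recovered reads in WT and 5, 21 and 11 in Bach2-cKO. Flvcr2 had 14, 10 and 11 recovered reads in WT and 27, 23 and 23 in Bach2-cKO, or 0.0929, 0.0942 and 0.116 against 0.284, 0.209 and 0.241 FPKM. The Flvcr2 groups did not overlap, but the gene was too low to be tested.

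All 4 members of the thioredoxin system rose. Srxn1, which encodes sulfiredoxin, the enzyme that repairs over-oxidised peroxiredoxin (chromosome 2, 152105516 to 152111376), was at 13.6, 18.4 and 16.1 FPKM in WT and 34.1, 30.6 and 33.1 FPKM in Bach2-cKO. The Bach2-cKO libraries lay close together and far above WT, and limma gave a log2 fold change of 0.99 (SE 0.11, adjusted p = 0.00159). Txnrd1, the cytosolic thioredoxin reductase gene (chromosome 10, 82859206 to 82897724), was at 34.2, 40.8 and 32.1 FPKM in WT and 52.5, 55.6 and 62.8 FPKM in Bach2-cKO. Its log2 fold change was 0.66 (SE 0.10, adjusted p = 0.00635). Txn1, thioredoxin itself (chromosome 4, 57943373 to 57956411), was at 162.1, 172.1 and 171.4 FPKM in WT and 241.1, 252.1 and 208.3 FPKM in Bach2-cKO. WT values were tight and Bach2-cKO replicate 3 was the lowest of its group, with a log2 fold change of 0.47 (SE 0.080, adjusted p = 0.00894). Prdx1, the peroxiredoxin that thioredoxin reduces (chromosome 4, 116685544 to 116700822), was at 180.9, 196.2 and 203.3 FPKM in WT and 247.4, 249.3 and 238.0 FPKM in Bach2-cKO. The log2 fold change was 0.34 (SE 0.063, adjusted p = 0.0115), and the adjusted p was 0.0525 without Bach2-cKO replicate 2. For the other three the call held with any 1 library left out, at adjusted p of up to 0.00824 for Srxn1, 0.0337 for Txnrd1 and 0.0438 for Txn1.

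Glutathione genes were divided, with 2 of 4 higher. Gclm, the modifier subunit of the enzyme that starts glutathione synthesis (chromosome 3, 122245557 to 122270732), was at 17.7, 18.6 and 16.3 FPKM in WT and 22.9, 25.6 and 28.8 FPKM in Bach2-cKO. The groups were apart, and limma gave a log2 fold change of 0.53 (SE 0.098, adjusted p = 0.0119, and at most 0.0477 with 1 library left out). Gclc, the catalytic subunit, was at 71.3, 82.6 and 58.3 FPKM in WT and 70.7, 68.4 and 101.2 FPKM in Bach2-cKO. Only Bach2-cKO replicate 3 was above all WT libraries, and the log2 fold change of 0.17 (SE 0.17) had an adjusted p = 0.560, with values from -0.011 without Bach2-cKO replicate 3 to 0.29 without WT replicate 2. Whether the 2 subunits changed differently was not tested. Gsr, glutathione reductase (chromosome 8, 33652523 to 33698163), was at 35.2, 38.5 and 37.6 FPKM in WT and 46.0, 44.6 and 43.8 FPKM in Bach2-cKO. All Bach2-cKO libraries were higher, by a log2 fold change of 0.27 (SE 0.061, adjusted p = 0.0274). The Gsr call was lost without any 1 of WT replicates 1 and 3 and Bach2-cKO replicates 1 and 2 (adjusted p = 0.100, 0.0590, 0.0954 and 0.0910). Gss, the second enzyme of glutathione synthesis, was at 7.74 to 10.1 FPKM with a log2 fold change of -0.0032 (95% confidence interval -0.28 to 0.27).

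Genes of NADPH supply showed little difference, with 0 of 4 tested members called in limma, 1 higher and 0 lower at an unadjusted p under 0.05 and 0 by limma-voom. That 1 was Pgd, 6-phosphogluconate dehydrogenase, at 66.5, 68.9 and 66.7 FPKM in WT and 79.2, 74.4 and 70.8 FPKM in Bach2-cKO. The groups did not overlap, with a log2 fold change of 0.15 and an adjusted p = 0.149. For G6pdx, which opens the pentose phosphate pathway, Taldo1 and Tkt, the groups overlapped, with log2 fold changes of 0.14, 0.071 and 0.085. The upper ends of their 95% confidence intervals were 0.33, 0.22 and 0.26 on the log2 scale. Malic enzyme gene Me1 had 25, 7 and 4 recovered reads in WT and 12, 6 and 6 in Bach2-cKO.

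Among the other oxidative stress genes 0 of 3 passed in limma, with 1 higher and 0 lower at an unadjusted p under 0.05 and 0 by limma-voom. Nqo1, a quinone reductase gene often read as a sign of NRF2 activity, was at 2.05, 3.08 and 1.26 FPKM in WT and 3.09, 3.56 and 9.25 FPKM in Bach2-cKO. The groups met at 3.08 and 3.09 FPKM without overlapping, and Bach2-cKO replicate 3 stood far above the rest (log2 fold change 0.92, SE 0.37, limma adjusted p = 0.138). Without that library the Nqo1 log2 fold change was 0.51 (adjusted p = 0.219). Sqstm1 was at 321.4, 324.4 and 271.9 FPKM in WT and 313.1, 340.4 and 396.5 FPKM in Bach2-cKO, and Osgin1, a stress-induced growth inhibitor gene, at 5.10, 3.71 and 3.03 against 3.94, 3.46 and 5.36 FPKM. Both overlapped between groups, with adjusted p = 0.272 and 0.792.

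Libraries within a group also differed over these genes. WT replicate 2 held the highest WT value for 21 of the 32 members tested, or 65.6%, where it did so for 36.6% of all genes tested. Bach2-cKO replicate 3 held the highest value of its group for 14 members, or 43.8%, near the 40.6% of all genes tested. Some members, picked after their values were seen, shared an order. Hmox1, Nqo1, Fth1, Ftl1, Gclc, Blvrb, Slc11a2, Gss and Sqstm1 were each highest in WT replicate 2 and in Bach2-cKO replicate 3 of their groups. Each was also lowest of WT in WT replicate 3. Relative to the WT mean, Bach2-cKO replicate 3 was higher by 1.76 for Hmox1 and 1.75 for Nqo1 in log2(FPKM + 1), against 0.60 and 0.43 for Bach2-cKO replicate 1. Of the members that rose, Txnrd1 and Gclm had the same order, while Cpox, Txn1, Prdx1, Gsr and Tfrc were lowest in Bach2-cKO replicate 3 of their group. Srxn1 was higher than the WT mean by 1.05, 0.90 and 1.01 in the 3 Bach2-cKO libraries. Neutrophil markers summed to 11.3, 14.3 and 13.9 FPKM in WT and 6.06, 45.6 and 57.0 FPKM in Bach2-cKO, mainly from S100a8 and S100a9. Mpo went the other way, at 1.56, 1.82 and 0.472 FPKM in WT and 0.139, 0.361 and 0 FPKM in Bach2-cKO. S100a8, S100a9, Elane, Ly6g and Retnlg overlapped between groups. The part of these markers in the members' values was not tested.

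**Figure D4:**
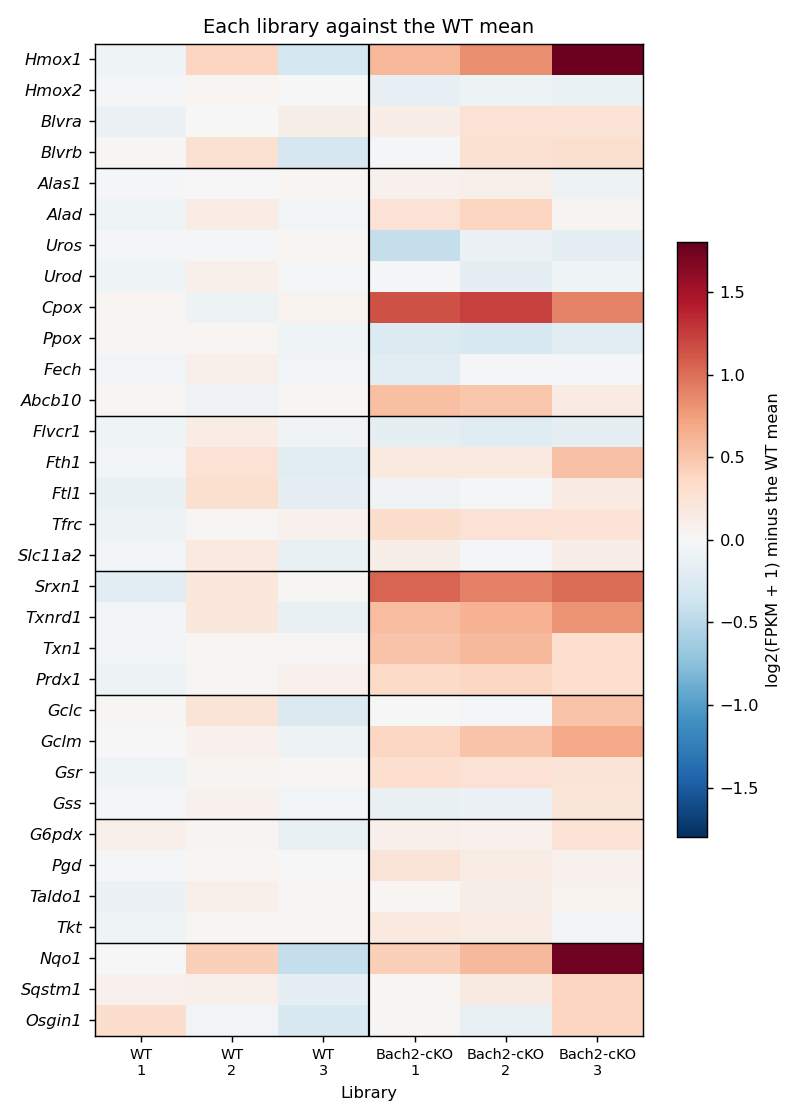
Log2(FPKM + 1) of each of the 32 members tested in each library minus the WT mean of that gene, from blue (lower) to red (higher), with lines between functions. Hmox1 and Nqo1 are darkest in Bach2-cKO replicate 3 (1.76 and 1.75), while Cpox and Srxn1 are raised in all 3 Bach2-cKO libraries.

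The sum of B cell markers was higher in every Bach2-cKO library than in any WT library, so it moved with the groups. With the B cell score in the fit, the log2 fold changes were 1.13 (SE 0.19) for Cpox, 0.83 (SE 0.19) for Srxn1, 0.41 (SE 0.16) for Txnrd1, 0.38 (SE 0.14) for Txn1, 0.38 (SE 0.17) for Gclm, 0.31 (SE 0.12) for Prdx1, 0.22 (SE 0.11) for Gsr, 0.27 (SE 0.12) for Tfrc and -0.27 (SE 0.12) for Ppox. That of Hmox1 was 0.59 (SE 0.53). None of these passed, with a limma adjusted p of 0.0546 for Cpox and 0.108 for Srxn1, and of all genes tested 74 were then called higher and 79 lower.

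**Figure D5:**
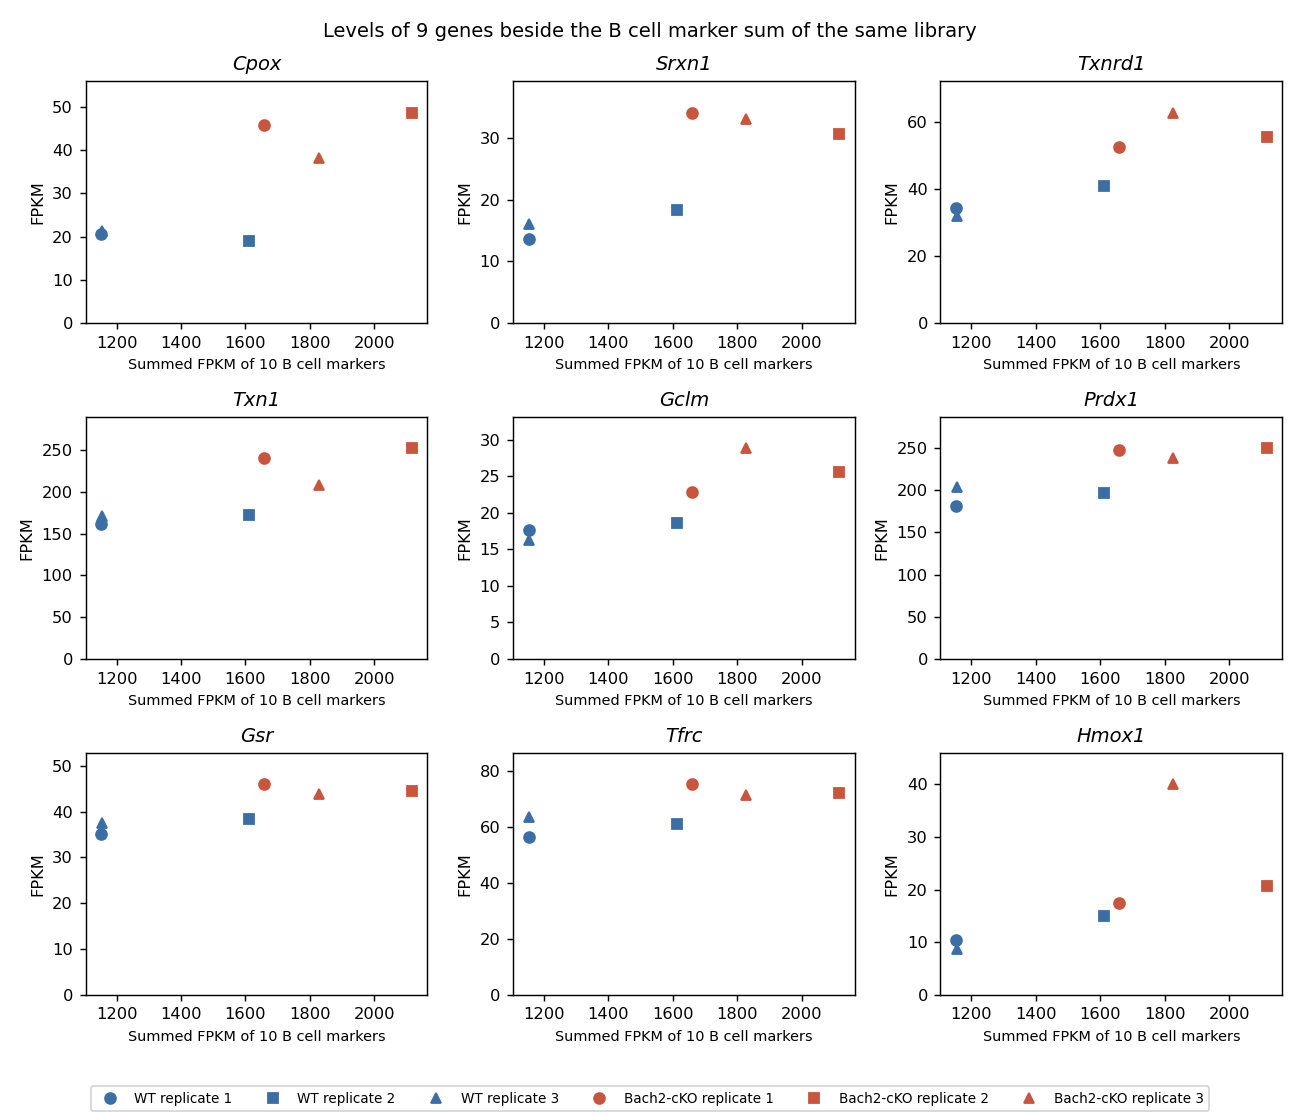
FPKM of the 8 members that rose and of Hmox1 on the vertical axes against the summed FPKM of 10 B cell markers in the same library, 6 libraries per panel. The WT libraries lie between 1152 and 1612 FPKM on the horizontal axis and the Bach2-cKO libraries between 1659 and 2117 FPKM, so the groups are apart on both axes in each panel.

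Further genes of the same pathways, chosen by function, gave 9 higher and 5 lower of 77 tested, or 18.2%, near the 15.3% of all genes, with a median log2 fold change of 0.025. The lower count was 2 without any 1 of WT replicates 1 and 2 and Bach2-cKO replicate 2, and 3 without either WT replicate 3 or Bach2-cKO replicate 1. The higher count was 6 if WT replicate 3 was left out, and 5 if WT replicate 1 or Bach2-cKO replicate 2 was. Slc48a1, which moves heme out of endosomes and lysosomes, was at 48.8, 51.8 and 49.8 FPKM in WT and 66.4, 68.2 and 72.2 FPKM in Bach2-cKO (log2 fold change 0.45, SE 0.059, limma adjusted p = 0.00322). Of 13 genes of iron sensing and handling 0 passed in limma. Limma-voom called 1 higher, and 4 were higher and 1 lower at an unadjusted p under 0.05.

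Around thioredoxin, 2 of 14 further genes rose and 2 fell. Txnip, which binds and inhibits thioredoxin, was at 389.0, 404.6 and 373.8 FPKM in WT and 220.2, 233.5 and 273.1 FPKM in Bach2-cKO. This was a fall in every library, by 0.69 on the log2 scale (SE 0.087, limma adjusted p = 0.00279), with the sign opposite to that of the 4 members. Glrx, glutaredoxin, rose from 67.3, 60.5 and 97.2 FPKM in WT to 151.8, 136.8 and 130.9 FPKM in Bach2-cKO (adjusted p = 0.0101). Sesn2, sestrin 2, rose by 0.34 (adjusted p = 0.0309) and lost its call without any 1 library other than Bach2-cKO replicate 1, with adjusted p between 0.0565 and 0.107. The other gene that fell, the iron-sulfur glutaredoxin Glrx3, had a log2 fold change of -0.25 (adjusted p = 0.0366, and 0.0648 to 0.103 with 1 library left out), and is named after its value was seen.

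In glutathione supply and peroxide removal 2 of 16 rose and 1 fell. Chac1, an enzyme that degrades glutathione, was at 3.19, 4.23 and 3.73 FPKM in WT and 7.23, 11.5 and 13.5 FPKM in Bach2-cKO (log2 fold change 1.28, limma adjusted p = 0.00730). The 2 chains of the cystine importer moved in opposite directions. Slc3a2, the heavy chain shared with other amino acid carriers, rose from 196.6 ± 16.3 to 283.1 ± 39.0 FPKM (SD, n = 3 each; adjusted p = 0.0183), and Slc7a11, the light chain that carries cystine, fell from 5.94 ± 0.442 to 3.33 ± 0.709 FPKM (adjusted p = 0.0179). Slc3a2 lost its call without any 1 of WT replicates 1 and 3 and Bach2-cKO replicate 2 (adjusted p = 0.0535, 0.0528 and 0.0501), and Slc7a11 without any 1 of WT replicates 1 and 2 and Bach2-cKO replicate 2 (adjusted p = 0.0697, 0.0629 and 0.0687).

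Of 15 further NADPH genes 3 rose and 1 fell. The mitochondrial folate enzyme genes Aldh1l2 and Mthfd2 rose, Aldh1l2 from 0.697, 0.584 and 0.802 FPKM in WT to 1.98, 2.26 and 2.19 FPKM in Bach2-cKO (limma adjusted p = 0.00685), so that it passed the filter on low values through Bach2-cKO alone. Mthfd2 rose from 109.4 ± 4.12 to 147.4 ± 10.5 FPKM (SD, n = 3 each; adjusted p = 0.00704). Rpia, of the pentose phosphate pathway, rose by 0.29 on the log2 scale (adjusted p = 0.0329), and its adjusted p was 0.114, 0.0760, 0.0761 and 0.124 without WT replicates 1 and 2 and Bach2-cKO replicates 1 and 2 in turn. The 1 that fell was Nnt, the mitochondrial transhydrogenase that makes NADPH, also named after its value was seen, by 0.33 on the log2 scale (adjusted p = 0.0470, 0.0573 with median-ratio scaling, and 0.0625 to 0.137 with 1 library left out). Among 10 genes of quinone and carbonyl reduction and NRF2 control 1 fell, the epoxide hydrolase gene Ephx1, from 184.8, 184.8 and 191.5 FPKM in WT to 85.9, 91.4 and 128.7 FPKM in Bach2-cKO (log2 fold change -0.89, adjusted p = 0.00620).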

How the data were processed

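Poly(A) RNA of 6 libraries was analysed, 3 WT and 3 Bach2-cKO. The authors deposited FPKM per gene and library, and the 6 single files equal their columns of the series table. HISAT2 2.0.5, featureCounts 1.5.0-p3 and the build mm9 are named in the submitters' processing notes, with no order, annotation or strand setting given. Gene positions equal GENCODE M21 (GRCm38) for 91.5% of 49326 shared identifiers, so GRCm38 is used. As FPKM is relative to each library's total, differences are relative too.

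Whole reads were recovered from the FPKM steps (100% of 28530 genes above 0, within 0.001 reads) and served for depth and limma-voom only. As planned for FPKM, log2(FPKM + 1), a pseudocount of 1, was tested with limma 3.58.1 (intensity trend, no covariate, two-sided) in R 4.3.3, over genes that reached 1 FPKM in 3 or more libraries. P-values were adjusted by the Benjamini-Hochberg method, with 0.05 as the limit for a call. Fold changes are on that scale, which understates changes of low genes. The test was checked on simulated data. The members, gene lists and tests were chosen with earlier results of these data known. Genes named were all members, and up to 3 called genes of each further list by smallest p. Alternatives were median-ratio scaling, limma-voom with trimmed-mean scaling, the replicate number as a block, no filter, a pseudocount of 0.1, a B cell marker score (mean of 10 markers) as a covariate, and leaving out each library. Counting error alone limits genes of few reads: a single read in 1 kb of gene equals 0.0228 to 0.0361 FPKM. Some results on single genes of the further lists are not reported here. Figures were drawn with Matplotlib 3.10.9.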

Additional observations from a re-analysis of the deposited data

How the results depend on the processing

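Of all genes tested, 967 were higher and 1144 lower. The counts were 501 and 681 with no filter on low values, 625 and 657 with the replicate number as a block, and 74 and 79 with the B cell marker score as a covariate. With 1 library left out they ranged from 492 to 1224 higher and from 560 to 1375 lower. The lowest higher counts were 492 without Bach2-cKO replicate 2, 494 without WT replicate 1 and 586 without Bach2-cKO replicate 1. The lower count was 560, 713, 703 and 588 without WT replicates 1 and 2 and Bach2-cKO replicates 1 and 2 in turn. Members called higher numbered 8, and 5 with the block, 0 with the B cell score, and 5 to 9 with 1 library left out. Members called lower numbered 1 (Ppox), and 0 with median-ratio scaling, no filter, the block or the B cell score, and 0 to 1 with 1 library left out. Of the further pathway genes, 9 higher and 5 lower became 4 and 2 with no filter and 0 and 0 with the B cell score, while the lower count was 3 with the block. With 1 library left out, 5 to 9 were higher and 2 to 6 lower. No call of a member or named gene changed direction under any alternative run. The B cell score left 5 of 32 members, and 17 of 77 further genes, at an unadjusted p under 0.05 in limma, or 15.6% and 22.1%, against 17.6% of all genes tested. With no filter 28530 genes were tested, and Tfrc (adjusted p = 0.0573) and Ppox (0.0583) lost their calls. The causes of the other shifts were not tested. Same-numbered libraries did not deviate together (correlations -0.0526, 0.00578 and -0.215 over genes, with 0 of 6 libraries correlating best with their own number), so the number is not read as a pairing. With the block, Gsr, Ppox, Prdx1 and Tfrc lost their calls (adjusted p = 0.0928, 0.115, 0.0502 and 0.0932). With 3 libraries a group and 27697735 to 43884431 reads, Slc40a1, Flvcr2 and Me1 had too few reads for a test.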

Other observations

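Among 8 tested erythroid markers 1 fell and 0 rose in limma, with 2 lower and 0 higher at an unadjusted p under 0.05 and 1 lower by limma-voom. The 1 that fell was the transcription factor gene Gata1, at 22.0, 20.3 and 18.5 FPKM in WT and 1.44, 0.907 and 2.02 FPKM in Bach2-cKO (log2 fold change -3.13, limma adjusted p = 0.000167). The globin genes went another way and overlapped between groups, with Hbb-bs at 188.2, 275.1 and 79.4 FPKM in WT and 116.1, 561.2 and 423.3 FPKM in Bach2-cKO. Itga2b, the integrin chain that marks megakaryocytes, fell from 7.70, 6.10 and 6.54 FPKM to 3.17, 3.09 and 2.97 FPKM (adjusted p = 0.00279), while the platelet genes Pf4 and Ppbp were at 0 in 5 of the 6 libraries each. Gata1 and Itga2b belong to the marker lists and were singled out after their values were seen.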
